A study of Mus musculus with 18 samples.

Results

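Messenger RNAs of 10 nuclear genes that copy the mitochondrial genome into RNA, or handle that RNA, were followed in mouse 2-cell embryos. The genes were Tfam, Polrmt, Tfb1m, Tfb2m, Tefm, Polg, Lrpprc, Slirp, Pnpt1 and Ppargc1a, chosen by name and not by any measured value. All 10 were found by symbol among the 55335 genes listed in each of the 18 libraries. The libraries are poly(A) RNA amplified with Smart-seq2 from 5 to 10 embryos each, and fall into 7 groups. Embryos given control siRNA (siCon) or siRNA against Echs1 (siEchs1) make 4 groups of 3 libraries, collected at 2 stages, E2C and L2C. E2C stands for the early 2-cell embryo; the labels do not spell out L2C, and they give no mouse strain, siRNA dose or collection time. Wild-type zygotes given DMSO, sodium acetate or sodium crotonate, at doses the labels do not state, make 3 groups of 2 libraries, all collected at E2C. Echs1 encodes a mitochondrial enoyl-CoA hydratase that removes crotonyl-CoA, the donor for crotonylation of histones, and the series examines that histone mark in early embryos. Nothing in the labels ties a library to a separate litter or collection, so p-values measure the spread between these libraries, which may be technical.

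The mitochondrial genome is transcribed by its own machinery, all of it encoded in the nucleus. TFAM bends and coats the DNA, TFB2M melts the promoter, POLRMT is the RNA polymerase, and TEFM keeps the polymerase moving. TFB1M, a relative of TFB2M, methylates the small ribosomal RNA, and POLG is the polymerase that replicates the DNA. LRPPRC and SLIRP form a complex that protects mitochondrial mRNAs, PNPT1 is a subunit of an exoribonuclease that degrades mitochondrial RNA, and PGC-1alpha (Ppargc1a) is a coactivator that drives expression of many such genes in energy-demanding tissues. Mammalian oocytes carry a large stock of mitochondria and maternal mRNA, and cleavage-stage mouse embryos divide without replacing most of their mitochondrial DNA.

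The promoters of several of these genes are textbook targets of nuclear respiratory factor NRF1 and of the ETS-family factor GABP, so the 250 bases before each RefSeq start (GRCm38.p6) were searched on both strands for 3 motifs. All 10 genes had a RefSeq promoter. The ETS core CCGGAAG (reverse complement CTTCCGG) was present in 5 of the 10, Tfam, Polrmt, Tefm, Polg and Slirp, against 6.91% of 32851 promoters of the same length. The NRF1 core GCGCATGC (reverse complement GCATGCGC) was present in Polrmt, against 2.26% of promoters, and the palindromic cAMP response element TGACGTCA in 0 of the 10, against 1.55%. No 2 matches overlapped. A match is a description of letters and not of a bound site. The stretches holding the motifs are printed because Gabpa, which encodes the DNA-binding subunit of GABP, is among the genes that changed. A link between the level of Gabpa and the levels of these genes was not tested. Capitals mark the motif, and each stretch reads 5′ to 3′ along the gene's own strand.
Tfam, chr10:71238065-71238094, minus strand, motif at -47 to -41 from the RefSeq start: ggaCCGGAAGtccgggcttcccacagtacc
Polg, chr7:79466294-79466323, minus strand, motif at -38 to -32: ggaggacctcacCCGGAAGtccctctgcac
Slirp, chr12:87443846-87443875, plus strand, motif at -48 to -42: gcCCGGAAGcagaactcgaaattccggctc
Tefm, chr11:80142154-80142183, minus strand, motif at -9 to -3: tttttgttggagcacacgaaaCCGGAAGtt
Polrmt, chr10:79746612-79746721, minus strand, NRF1 core at -133 to -126 and the ETS core on the opposite strand at -43 to -37: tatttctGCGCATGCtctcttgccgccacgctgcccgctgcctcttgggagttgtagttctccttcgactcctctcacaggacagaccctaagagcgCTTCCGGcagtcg
Slirp held further matches on the opposite strand at -146 to -140 and at -11 to -5.

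In the GENCODE annotation of the same build, all 10 are protein-coding genes. Polrmt spans chr10:79736123-79746581 and Tfam chr10:71225464-71238280, so the RefSeq start of Tfam and the stretch shown lie inside its longer GENCODE model. The stretch shown for Polg lies inside its GENCODE model too, and that for Tefm (chr11:80136678-80142175) partly so. All 250 bases searched for Slirp, with all its matches, lie in exons of Alkbh1 on the opposite strand. Tfb1m lies at chr17:3519256-3557781, Tfb2m at chr1:179528055-179546267, Lrpprc at chr17:84705247-84790789, Pnpt1 at chr11:29130744-29161828 and Ppargc1a at chr5:51454250-51567726. The values carry no strand, so reads from genes that overlap on opposite strands cannot be told apart. This bears most on Slirp (chr12:87443896-87452206), since 2914 of its 3104 exonic bases lie in exons of Snw1, a splicing factor gene on the opposite strand, and 122 in exons of Alkbh1. Polg (chr7:79446231-79466362) shares 921 of 10742 exonic bases with Fanci, and Tfb1m shares 142 of 3609 with Tiam2. No exon of another gene overlapped the exons of Tfam, Polrmt, Tfb2m, Tefm, Lrpprc, Pnpt1 or Ppargc1a in that annotation.

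Values are FPKM, fragments scaled to transcript length and library size, and between 11982 and 16638 genes reached 1 FPKM in a library. Echs1 was at 27.47 to 32.52 FPKM in siCon E2C and 0.71 to 5.88 in siEchs1 E2C, and at 24.43 to 39.17 in siCon L2C and 0.89 to 4.32 in siEchs1 L2C, so every library labelled siEchs1 was below every library labelled siCon. siEchs1 E2C replicate 3 stood apart from its group. Its rank correlation with the other 2 libraries over genes was 0.668 and 0.718, against 0.9 between those 2. Of the summed FPKM, mitochondrially encoded genes took 13.1 to 17.1% in siCon E2C and 7.62 to 11.2% in siCon L2C. They took 2.83, 1.70 and 10.4% in siEchs1 E2C and 0.834 to 2.28% in siEchs1 L2C. The 12 oocyte transcripts listed as markers were all above 1 FPKM in some library of each group. Their summed level was 8000 to 9010 FPKM in siCon E2C, 18300, 23100 and 5480 in siEchs1 E2C, 1500 to 2140 in siCon L2C and 18300 to 23700 in siEchs1 L2C. The part of these oocyte transcripts and of the mitochondrial share in the results on the 10 genes was not tested. The 7 genes listed for the 2-cell stage summed to 751 to 1240 FPKM in siCon and 63.3 to 419 in siEchs1 libraries. Of other cell types, 6 blood markers summed to 59.7 to 125 FPKM in siCon and 2.74 to 18.7 in siEchs1. Only 2 of these 6 reached 1 FPKM in any siCon library of E2C, and 2 in any of L2C. In siEchs1 it was 3 at E2C and 2 at L2C. The 5 oviduct markers summed to 21.8 to 179 in siCon and 3.88 to 28.2 in siEchs1, the 6 sperm and testis markers to 5.3 to 72.2 over all 12 siRNA libraries, and the 10 cumulus and granulosa markers to 1.67 to 9.93, with Amh and Ptx3 at 0 in every siCon and siEchs1 library of E2C. Of the 5 oviduct markers, 2 reached 1 FPKM in some siCon E2C library, 4 in siCon L2C, 2 in siEchs1 E2C and 2 in siEchs1 L2C. These 5 are Ovgp1, Foxj1, Pax8, Krt8 and Epcam, and Foxj1 and Pax8 were at 0 in every siCon E2C library. A sum over these markers does not show that oviduct cells were present. The part of the markers of all these lists was not tested either. Fewer embryos contributing a transcript and less transcript per embryo cannot be told apart in these pooled libraries. Because the libraries were made from poly(A) RNA, a change in amount and a change in poly(A) tail cannot be told apart either. This holds for the 10 genes and for the mitochondrial RNAs.

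The 10 genes covered a wide range of levels. Per length, in siCon E2C the mean level ± SD (n = 3) was highest for Slirp at 35.4 ± 2.86 FPKM and Tfb2m at 33.8 ± 5.03, whose libraries overlapped each other. Next came Tefm at 13.8 ± 0.203 and Tfb1m at 9.05 ± 0.765, each separate from its neighbours in this order. Polrmt followed at 6.08 ± 1.37. Polg at 3.15 ± 1.03, Lrpprc at 2.62 ± 0.534 and Tfam at 2.50 ± 1.28 overlapped one another, and Pnpt1 was at 1.21 ± 0.381. The order was not the same in DMSO E2C (n = 2), the control group of the other experiment. Mean FPKM there was 62.8 for Tfb2m, 31.5 for Tfb1m, 8.54 for Tfam, 6.94 for Lrpprc and 4.21 for Pnpt1. Polrmt was at 3.38, Polg at 2.25, Tefm at 1.68 and Slirp at 1.14. The 2 experiments were not tested against each other. Ppargc1a was near 0 everywhere, between 0 and 0.34 FPKM in all 18 libraries. It did not reach the level of 1 FPKM needed for a test, so 9 of the 10 genes were tested in each comparison.

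**Figure D1:**
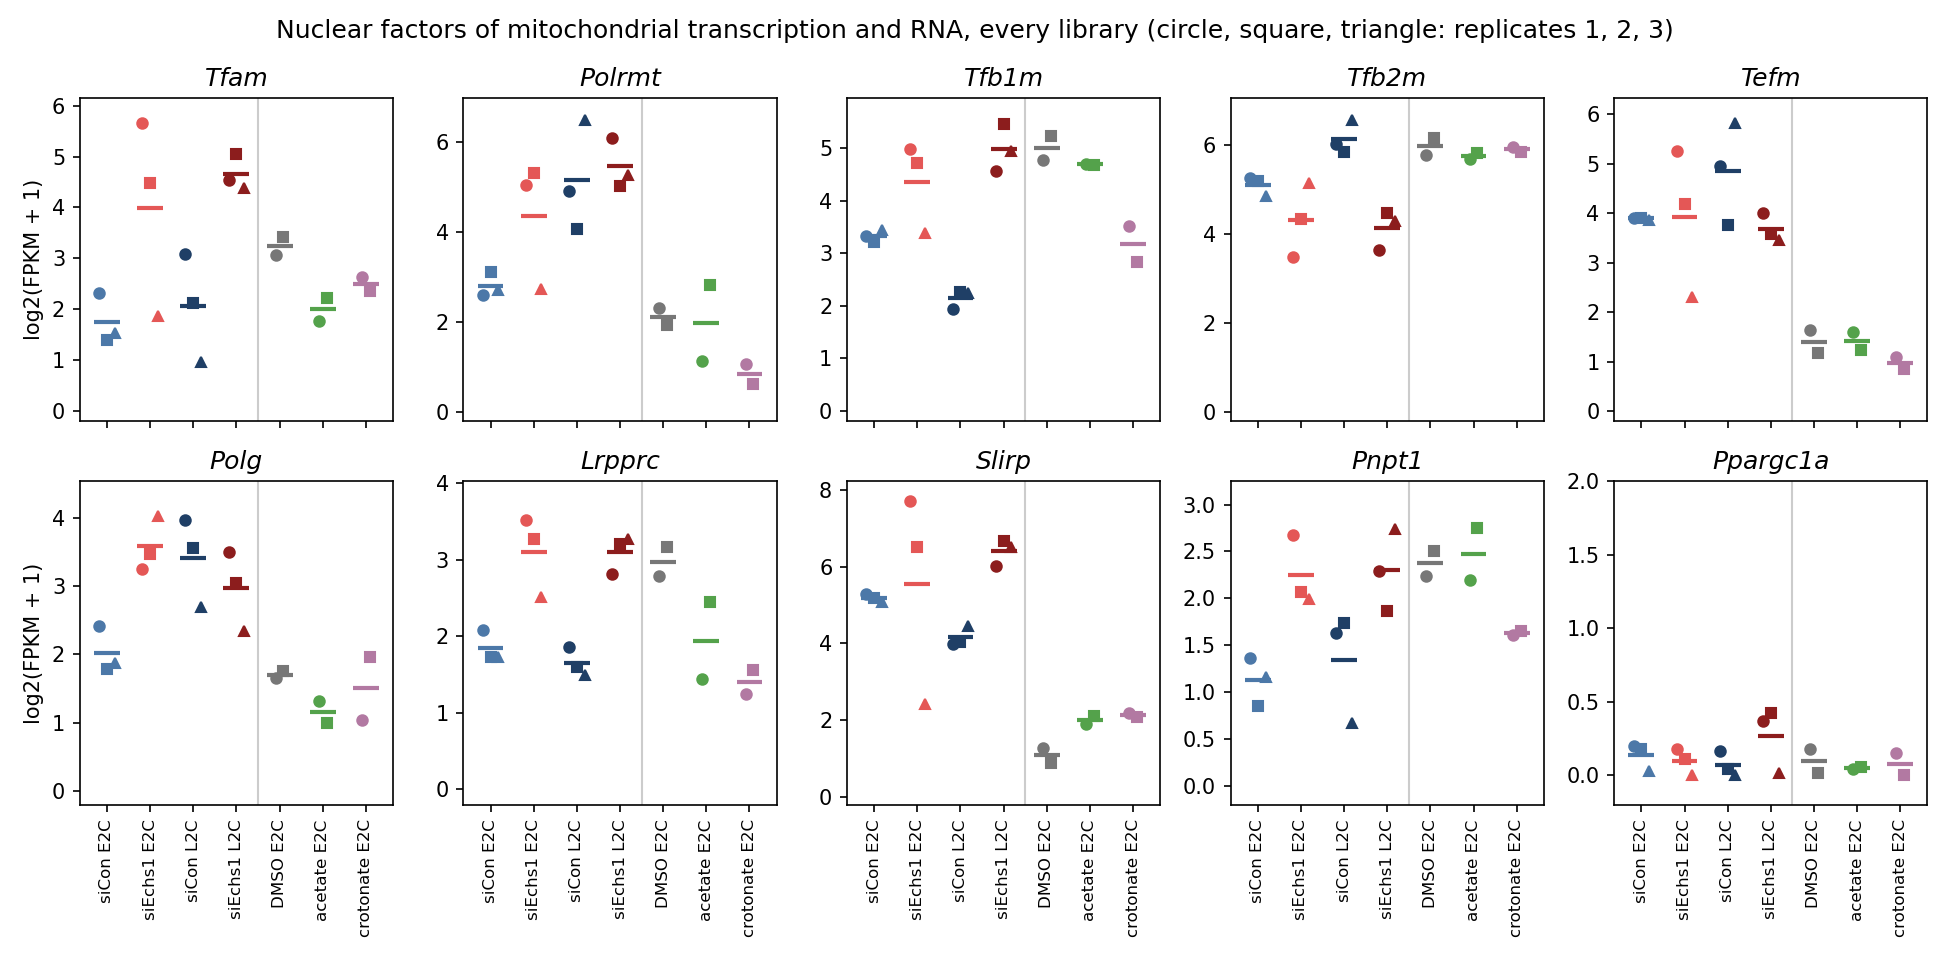
Level of each of the 10 genes in every library, as log2(FPKM + 1), with groups on the horizontal axis and a bar at the group mean; the grey line separates the siRNA libraries from the treatment libraries, which were never tested against each other. In siEchs1 E2C, replicate 3 (triangle) lies near the siCon E2C libraries for Tfam (2.65 FPKM), Polrmt (5.64 FPKM) and Tfb1m (9.46 FPKM), and Ppargc1a is at most 0.34 FPKM throughout.

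After Echs1 siRNA at the later stage, the initiation and RNA factors did not move as one block. Tfam, Tfb1m and Lrpprc rose, and Tfb2m, the partner of the polymerase at the promoter, fell. These 4 of the 9 tested genes passed an adjusted p of 0.05 in limma, with 3 called higher and 1 lower. Among all 17652 genes tested, 21.9% were called higher and 26.9% lower at this stage. The share called in this comparison was thus large for genes in general, and 4 of 9 is not set apart from it.

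Tfb1m, the ribosomal RNA methyltransferase gene, gave the clearest separation. Its level was 2.81, 3.78 and 3.71 FPKM in siCon L2C and 22.68, 42.94 and 29.82 FPKM in siEchs1 L2C. No siEchs1 library came near the controls, and the log2 fold change was 2.85 (SE 0.41, limma adjusted p = 0.000207). Tfb2m went the other way, from 64.59, 56.62 and 93.78 FPKM in siCon L2C to 11.60, 21.20 and 18.65 FPKM in siEchs1 L2C. The groups did not overlap and the log2 fold change was -2.01 (SE 0.41, limma adjusted p = 0.00182). Both calls, and that of Lrpprc, held under all 20 alternative analyses.

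Because TFB1M and TFB2M descend from a common methyltransferase, their ratio within a library, which needs no scaling between libraries, was also taken. Tfb1m over Tfb2m was 0.0435, 0.0668 and 0.0396 in siCon L2C and 1.96, 2.03 and 1.60 in siEchs1 L2C. At E2C it was 0.241, 0.232 and 0.350 in siCon, and 3.00, 1.31 and 0.274 in siEchs1. Tfb1m exceeded Tfb2m in 5 of the 6 siEchs1 libraries, all but E2C replicate 3, and in none of the other 12 libraries of the series. The ratio shows unequal change of the 2 genes and not which of them changed.

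**Figure D2:**
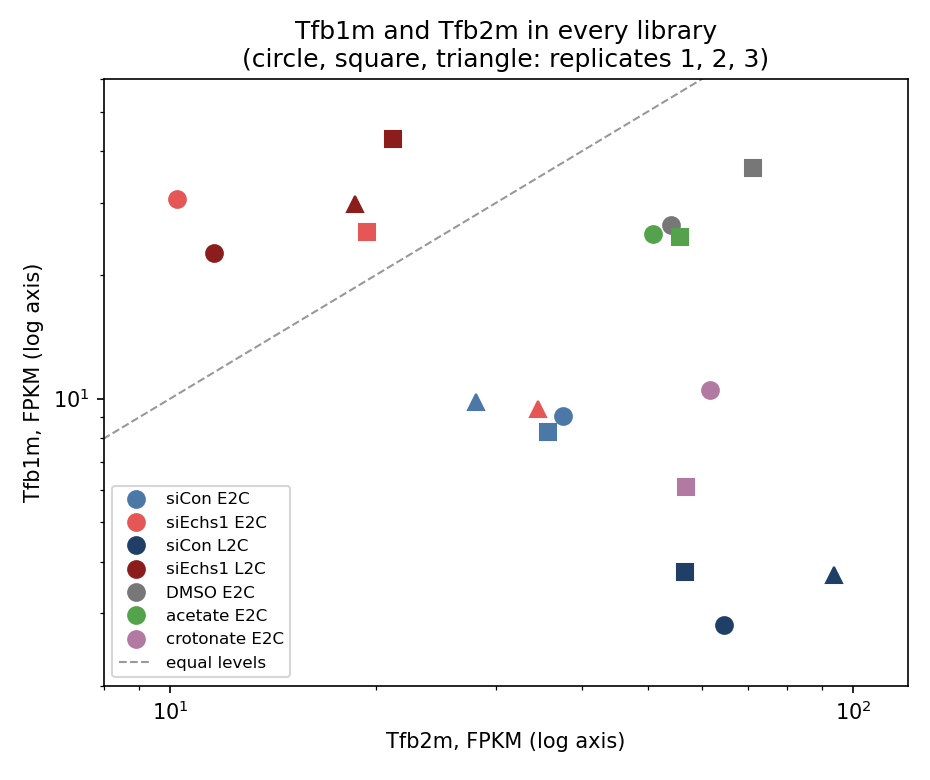
Tfb1m against Tfb2m in FPKM, both axes logarithmic, 1 point per library, coloured by group; the dashed line marks equal levels. The 5 points above the line are siEchs1 libraries with ratios from 1.31 to 3.00, and siEchs1 E2C replicate 3 (ratio 0.274) lies beside the siCon E2C libraries.

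Tfam, which packages the mitochondrial genome and recruits the polymerase, was at 7.51, 3.36 and 0.94 FPKM in siCon L2C. It was at 22.24, 32.24 and 19.86 FPKM in siEchs1 L2C. All siEchs1 libraries were higher, although the controls themselves spread widely. The log2 fold change was 2.60 (SE 0.79, limma adjusted p = 0.0162), and it passed the threshold in 18 of 20 alternatives. Without siCon L2C replicate 3 its adjusted p was 0.0767, and without siEchs1 L2C replicate 2 it was 0.0535.

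Lrpprc, the mRNA-protecting partner of SLIRP, was at 2.63, 2.04 and 1.82 FPKM in siCon L2C and 6.07, 8.21 and 8.71 FPKM in siEchs1 L2C. The groups were well separated, with a log2 fold change of 1.45 (SE 0.33, limma adjusted p = 0.00363). Slirp was at 14.91, 15.31 and 20.71 FPKM in siCon L2C and 63.72, 100.71 and 90.00 FPKM in siEchs1 L2C. Its groups did not overlap either, but the log2 fold change of 2.24 (SE 0.95) did not pass (limma adjusted p = 0.0669). Snw1, which shares most of the Slirp exons, was at 66.35, 33.44 and 31.47 FPKM in siCon L2C and 75.26 to 87.95 FPKM in siEchs1 L2C. Its log2 fold change was 0.96 (SE 0.32, limma adjusted p = 0.0277). Part of the reads given to Slirp could belong to Snw1, and how large a part was not tested. In DMSO E2C, Snw1 was at 64.24 and 68.08 FPKM and Slirp at 1.43 and 0.85.

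Pnpt1, the exoribonuclease gene, was at 2.10, 2.34 and 0.59 FPKM in siCon L2C and 3.88, 2.65 and 5.66 FPKM in siEchs1 L2C, with a log2 fold change of 0.95 (SE 0.38, limma adjusted p = 0.0534). Polrmt was at 29.10, 15.92 and 88.67 FPKM in siCon L2C and 67.46, 31.86 and 37.53 FPKM in siEchs1 L2C. Its groups overlapped, and the 95% interval of its log2 fold change, 0.31, ran from -1.18 to 1.80. Tefm had a log2 fold change of -1.17 and Polg one of -0.44, with overlapping groups and adjusted p-values of 0.154 and 0.406 in limma. By plain separation of the groups, 5 of the 9 genes were higher in every siEchs1 L2C library than in every control, and 1 was lower. The same held for 30.5% and 32.6% of all genes.

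The spread shared across the 4 siRNA groups bears on these calls. Without siEchs1 E2C replicate 3, which is not part of the L2C contrast but enters the common spread, 7 of the 9 genes were called at L2C, 5 higher and 2 lower, against 27.7% and 31.0% of all genes in that fit. Slirp (adjusted p = 5e-05), Pnpt1 (0.0361) and Tefm, lower (0.0354), then joined the 4 in limma. Slirp and Pnpt1 were also called with other scalings of all libraries, which gave 6 of the 9 called, 5 higher and 1 lower. Under quantile normalization their limma adjusted p-values were 0.0353 and 0.017, and with rescaling outside mitochondrial and ribosomal RNA 0.0454 and 0.0486.

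At the early stage, 2 of the 9 genes rose after Echs1 siRNA, Polg and Lrpprc, and none was called lower. Across all genes, 11.0% were called higher and 9.31% lower, and the median log2 fold change was 1.12 for the 9 genes and 0.15 for all genes tested. Of the 9, 6 had an unadjusted p under 0.05, as did 34.6% of all genes. The number of calls moved with several libraries, and most with siEchs1 E2C replicate 3, the library that stood apart.

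Polg, the replicative DNA polymerase gene, was at 4.34, 2.44 and 2.68 FPKM in siCon E2C and 8.54, 10.02 and 15.34 FPKM in siEchs1 E2C. Unlike Lrpprc it was highest in replicate 3, and its log2 fold change was 1.56 (SE 0.42, limma adjusted p = 0.0216). Fanci, which overlaps it, had a log2 fold change of 1.09 (SE 0.30, limma adjusted p = 0.0246), with 0.93 to 1.80 FPKM in siCon E2C and 2.74 to 5.22 in siEchs1 E2C. Lrpprc was at 3.24, 2.32 and 2.31 FPKM in siCon E2C and 10.52, 8.71 and 4.70 FPKM in siEchs1 E2C. It was higher in all 3 siEchs1 libraries, with a log2 fold change of 1.26 (SE 0.33, limma adjusted p = 0.0204). Pnpt1 also did not overlap, at 1.57, 0.81 and 1.24 FPKM against 5.37, 3.19 and 2.98 FPKM, with a log2 fold change of 1.12 (SE 0.38, limma adjusted p = 0.0541, and 0.0443 with quantile normalization). Thus 3 of the 9 genes were separated upward and none downward, against 19.0% and 15.5% of all genes.

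The remaining genes split by library. Tfam was at 3.98, 1.64 and 1.89 FPKM in siCon E2C and at 49.20, 21.17 and 2.65 FPKM in siEchs1 E2C. Polrmt was at 5.07, 7.64 and 5.53 FPKM in siCon E2C and 32.02, 38.83 and 5.64 FPKM in siEchs1 E2C. Tfb1m was at 9.06, 8.28 and 9.81 FPKM and at 30.70, 25.40 and 9.46 FPKM. In each of these 3, replicates 1 and 2 lay above all controls and replicate 3 lay among them. Slirp showed the widest split, with 38.24, 35.37 and 32.53 FPKM in siCon E2C and 209.54, 89.93 and 4.33 FPKM in siEchs1 E2C. Tfb2m was at 37.55, 35.71 and 28.06 FPKM in siCon E2C and 10.22, 19.39 and 34.55 FPKM in siEchs1 E2C, so here replicates 1 and 2 lay below all controls. Tefm was at 13.62 to 14.02 FPKM in siCon E2C and 37.18, 17.14 and 3.96 FPKM in siEchs1 E2C.

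With all 3 libraries, limma gave log2 fold changes of 2.25 for Tfam (SE 0.79, adjusted p = 0.0619), 1.56 for Polrmt (SE 0.69, adjusted p = 0.128) and 1.04 for Tfb1m (SE 0.41, adjusted p = 0.089). Tfb2m was at -0.78 (adjusted p = 0.202), Slirp at 0.36 (0.825) and Tefm at 0.02 (0.99). Without replicate 3, 8 of the 9 genes were called, 7 higher and 1 lower. In that fit 23.2% of all genes were called higher and 14.0% lower, 6496 genes in place of 3578. The values were then 3.31 for Tfam (limma adjusted p = 0.000508), 2.37 for Polrmt (0.00527), 1.53 for Tfb1m (0.00188), 1.93 for Slirp (0.000839) and -1.19 for Tfb2m (0.0177). Tefm, at 0.83, was the gene not called (adjusted p = 0.209). In the other direction, leaving out siCon E2C replicate 2 or 3, or siEchs1 E2C replicate 2, left 0 of the 9 called, and leaving out siEchs1 E2C replicate 1 left 1. When the libraries were rescaled to their total outside mitochondrial and ribosomal RNA, Tfam (2.40, limma adjusted p = 0.0343), Tfb1m (1.28, 0.0266) and Pnpt1 (1.24, 0.0325) were called as well. That scaling moved the median of all genes by 0.17 and the share of higher calls among all calls from 54.1% to 69.5%.

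**Figure D3:**
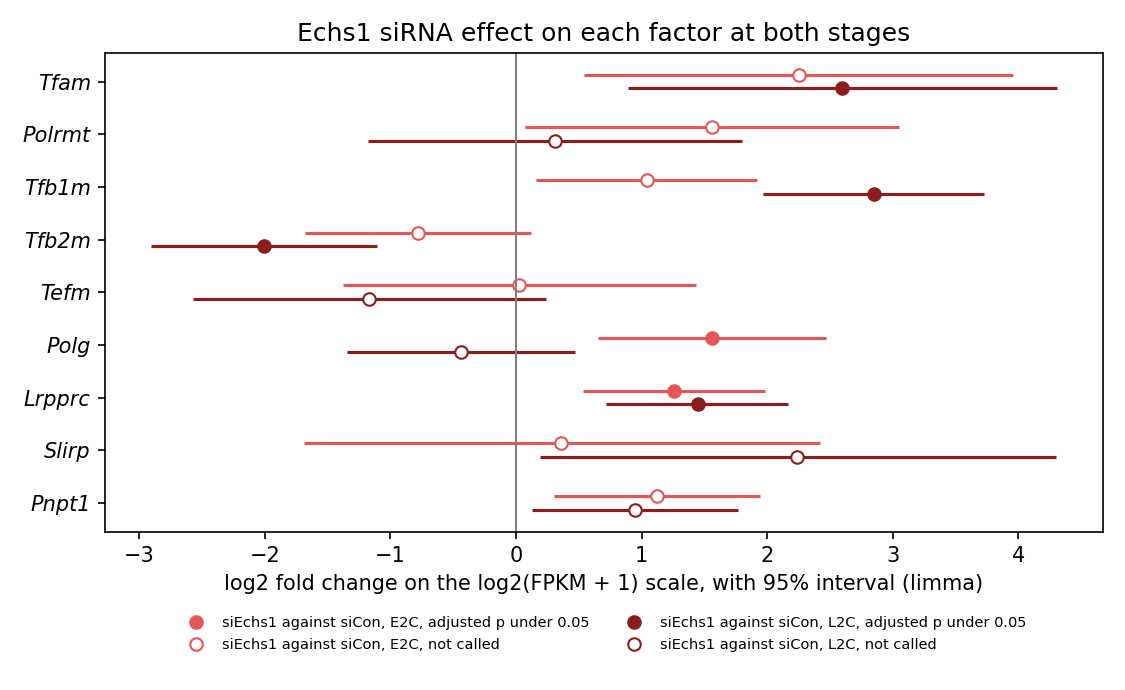
Log2 fold change of siEchs1 against siCon for the 9 tested genes at E2C and L2C, with 95% intervals from limma; filled points passed an adjusted p of 0.05. Tfb1m (2.85) and Tfb2m (-2.01) at L2C lie on opposite sides of 0, and Polg is called at E2C (1.56) but not at L2C (-0.44).

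The siRNA effect itself differed between the stages for 2 of the 9 genes, as tested by the interaction of siRNA and stage. Across all genes, 5.65% had a difference called higher at L2C and 11.6% lower. For Tfb1m the excess of siEchs1 over siCon was larger at L2C, by 1.81 on the log2 scale (SE 0.58, limma adjusted p = 0.0477). From E2C to L2C its log2 fold change was -1.19 in siCon and 0.62 in siEchs1, so the difference includes a fall in the controls. Polg rose at E2C and not at L2C, a difference of -1.99 (SE 0.59, limma adjusted p = 0.0373). Both lay close to the threshold: the call was lost in 13 of 19 alternatives for Tfb1m and in 9 of 19 for Polg. For Tfam the difference was 0.36 with a 95% interval from -2.06 to 2.77, and for Lrpprc it was 0.19 with an interval from -0.84 to 1.22. Leaving out any 1 of 9 libraries left 0 or 1 of the 2 calls; only siEchs1 E2C replicates 1 and 3 and siEchs1 L2C replicate 1 could be left out without losing either.

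Between the stages in control embryos, Polrmt and Polg rose and Tfb1m fell. These 3 of 9 genes compare with 35.8% of all genes called higher and 14.4% lower from siCon E2C to siCon L2C. The comparison uses the same siCon L2C libraries as the siRNA contrast at that stage. Polrmt was at 5.07 to 7.64 FPKM at E2C and 15.92 to 88.67 FPKM at L2C, a log2 fold change of 2.35 (SE 0.69, limma adjusted p = 0.0128). Polg was at 2.44 to 4.34 FPKM and then at 5.44 to 14.69 FPKM, a log2 fold change of 1.38 (SE 0.42, limma adjusted p = 0.0159). Tfb1m was at 8.28 to 9.81 FPKM and then at 2.81 to 3.78 FPKM, a log2 fold change of -1.19 (SE 0.41, limma adjusted p = 0.028). Tfb2m had a log2 fold change of 1.04 (SE 0.41, limma adjusted p = 0.0522), with no overlap between the stages.

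These stage calls depended on scaling. The median log2 fold change of all genes between the stages was 0.51. Quantile normalization moved that median by -0.52 and the share of higher calls from 71.3% to 49.7%. Polrmt was then at 1.67 (limma adjusted p = 0.057), Polg at 0.71 (0.151) and Lrpprc was called lower at -0.87 (0.0407). With rescaling outside mitochondrial and ribosomal RNA, Tfb1m was at -0.87 (0.0624), and Tfb2m was called at 1.39 (0.0252). Without siCon L2C replicate 3, whose Polrmt level of 88.67 FPKM was the highest of the series, Polrmt had an adjusted p of 0.0634, and leaving out any siCon library other than E2C replicate 1 left 1 of the 9 called.

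In siEchs1 embryos none of the 9 genes was called between the stages, and none had an unadjusted p under 0.05 in limma, while 14.6% of all genes were called and 28.0% had such an unadjusted p. Their log2 fold changes from E2C to L2C ran from -0.62 for Polg to 1.1 for Polrmt. The intervals were wide, for example -1.05 to 2.37 for Tfam, so these data do not show that the levels were the same.

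**Figure D4:**
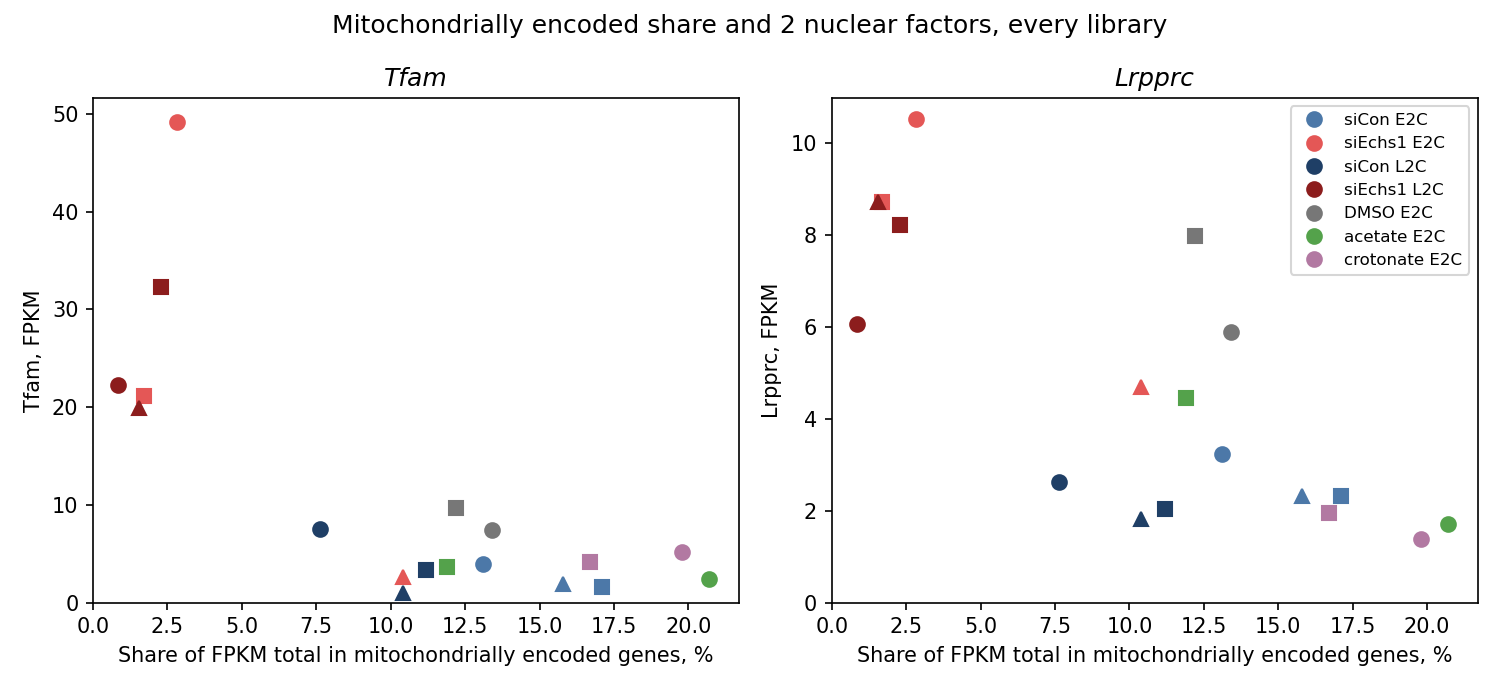
Share of the FPKM total in mitochondrially encoded genes (horizontal, percent) against Tfam and Lrpprc (vertical, FPKM), 1 point per library of both experiments, coloured by group, with circle, square and triangle for replicates 1, 2 and 3. The 5 libraries below 3% are siEchs1 libraries with Tfam from 19.86 to 49.20 FPKM, and siEchs1 E2C replicate 3 has a share of 10.4% and Tfam at 2.65 FPKM.

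The RNAs made from the mitochondrial genome, on which these factors act, were lower after Echs1 siRNA. At E2C, 10 of 15 listed mitochondrial RNAs were called lower and 0 higher, with a median log2 fold change of -2.13. Of all genes, 9.31% were called lower and 11.0% higher there, with a median of 0.15. At L2C all 15 were called lower, with a median of -2.98. Of all genes, 26.9% were called lower there, with a median of -0.08. mt-Atp6, an ATP synthase subunit, was at 27986.59, 40468.04 and 39574.5 FPKM in siCon E2C and 4271.46, 2794.64 and 9404.7 FPKM in siEchs1 E2C. It was at 18064.36, 21126.98 and 21585.38 FPKM in siCon L2C and 1364.31, 2753.55 and 1668.97 FPKM in siEchs1 L2C. mt-Rnr2, the large ribosomal RNA, was at 5339.08 to 8232.87 FPKM in siCon E2C and at 1984.53, 904.99 and 11280.29 FPKM in siEchs1 E2C. Its replicate 3 was thus above all controls, and its log2 fold change of -1.35 was not called at E2C (limma adjusted p = 0.209), while at L2C it was -2.15 (0.0274). mt-Nd6, the one protein gene read from the opposite strand, had a log2 fold change of -1.42 at E2C (limma adjusted p = 0.167) and -2.71 at L2C (0.00682), and without strand its reads cannot be told from antisense ones. mt-Cytb, a subunit of the cytochrome bc complex, had log2 fold changes of -2.92 at E2C (0.00157) and -3.44 at L2C (0.00016). In siCon, 7 of the 15 fell between the stages, where 14.4% of all genes were called lower. They were led by mt-Nd3 with a log2 fold change of -3.97 (SE 0.71, limma adjusted p = 0.000622).

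Among the other transcription factors of the organelle, the 5 Mterf genes encode relatives of the mitochondrial termination factor. At L2C, 2 of the 5 rose after Echs1 siRNA and 0 fell, where 21.9% of all genes were called higher. Mterf4, which works with a methyltransferase in assembly of the mitochondrial ribosome, was at 7.05, 4.41 and 3.84 FPKM in siCon L2C and 137.77, 126.0 and 100.7 FPKM in siEchs1 L2C. Its log2 fold change of 4.35 (SE 0.77, limma adjusted p = 0.00069) was larger in size than that of any of the 9 tested genes. Mterf1b rose by 1.93 (SE 0.64, limma adjusted p = 0.025), but its reads may be shared with its near copy Mterf1a, which was at 0.43 (adjusted p = 0.601). At E2C the siCon libraries had Mterf4 at 12.11, 10.38 and 12.85 FPKM and the siEchs1 libraries at 122.42, 178.54 and 10.03, the same split by library as Tfam. Of the 5271 exonic bases of Mterf4, 1855 lie in exons of Sned1 on the opposite strand.

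Genes of mitochondrial DNA replication and upkeep gave 3 called higher and 0 lower of 18 tested at E2C, and 4 higher and 2 lower at L2C. Of all genes, 11.0% were called higher and 9.31% lower at E2C, and 21.9% and 26.9% at L2C; the same shares apply to the lists that follow. Tk2, the mitochondrial thymidine kinase, had log2 fold changes of 1.76 (SE 0.42, limma adjusted p = 0.0124) at E2C and 2.90 (0.000216) at L2C, where siCon libraries had 3.36 to 7.38 FPKM and siEchs1 libraries 41.46 to 59.67. Rnaseh1, which removes RNA from hybrids with DNA, rose at both stages, by 1.63 and 1.94 (adjusted p = 0.0158 and 0.00212). Lonp1, the protease that degrades unbound TFAM, rose at E2C, with 3.70 to 5.39 FPKM in siCon and 13.02 to 20.99 in siEchs1, a log2 fold change of 1.61 (SE 0.32, limma adjusted p = 0.00464). At L2C the 2 that fell were Slc25a36, a pyrimidine nucleotide carrier, at -2.82 (0.000273), and Dna2, a nuclease and helicase, at -2.57 (0.000658).

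Genes of mitochondrial RNA processing and turnover gave 2 higher and 0 lower of 18 at E2C, and 4 higher and 3 lower at L2C. Ptcd2, a pentatricopeptide repeat protein like LRPPRC, had log2 fold changes of 1.31 (SE 0.40, limma adjusted p = 0.0347) at E2C and 2.93 (0.000158) at L2C. Elac2, which trims the 3′ ends of tRNAs, rose by 1.58 at E2C (0.00698) and 1.65 at L2C (0.00161). Mtpap, the mitochondrial poly(A) polymerase, went from 10.66, 10.67 and 6.26 FPKM in siCon L2C to 32.75, 52.67 and 51.5 FPKM in siEchs1 L2C, a log2 fold change of 2.20 (SE 0.38, limma adjusted p = 0.000631). Tbrg4, which stabilises some mitochondrial mRNAs, went down from 56.86, 60.81 and 99.42 FPKM to 18.67, 11.71 and 6.62 FPKM, a log2 fold change of -2.52 (SE 0.49, limma adjusted p = 0.00122), and Grsf1, of the mitochondrial RNA granules, was at -0.96 (0.0366).

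The list of tRNA and rRNA modification genes was divided. It had 3 called higher and 1 lower of 22 at E2C, and 6 higher and 7 lower at L2C, with a median log2 fold change of -0.12 at L2C against -0.08 for all genes. Mto1, which modifies tRNA wobble bases, rose at both stages by 1.20 and 1.22 (limma adjusted p = 0.0223 and 0.00858), and Trit1, which adds an isopentenyl group to tRNAs, rose by 2.20 at L2C (0.000505). Ddx28, a helicase of ribosome assembly, was called higher at E2C (2.48, adjusted p = 0.0452) with levels of 15.95, 42.49 and 1.07 FPKM against 0.77 to 1.24, so again replicate 3 lay among the controls. Trmt61b, a tRNA methyltransferase, fell by 2.16 at E2C (0.0112) and by 4.06 at L2C (0.000107), where the siCon libraries had 14.11, 20.48 and 54.72 FPKM and the siEchs1 libraries 0.42, 1.68 and 0.02. Trub2, a pseudouridine synthase, fell by 2.73 at L2C (0.000147).

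Regulators of mitochondrial biogenesis were called in both directions after Echs1 siRNA. At E2C 4 of 18 were called higher and 1 lower, and at L2C 5 were called higher and 9 lower, with a median log2 fold change of -0.73 at L2C against -0.08 for all genes. Gabpa encodes 1 factor of the ETS family, whose core motif 5 of the 10 promoters hold. It was at 32.89, 62.09 and 42.12 FPKM in siCon E2C and 3.94, 11.72 and 6.18 FPKM in siEchs1 E2C. Here replicate 3 lay with its own group, and the log2 fold change was -2.56 (SE 0.60, limma adjusted p = 0.0112). At L2C the siCon libraries had 97.06, 67.62 and 245.85 FPKM and the siEchs1 libraries 9.27, 11.58 and 2.09, a log2 fold change of -4.01 (SE 0.60, limma adjusted p = 0.000254). In the treatment experiment Gabpa was low in the E2C controls too, at 1.54 and 1.22 FPKM with DMSO. It was at 1.35 and 2.12 FPKM with acetate and 4.56 and 6.10 with crotonate. The experiments were not tested against each other. Of the 5687 exonic bases of Gabpa, 397 lie in exons of Atp5j on the opposite strand. Pprc1, a coactivator related to PGC-1alpha, fell at L2C, with 31.64 to 52.13 FPKM in siCon and 3.10 to 6.83 in siEchs1 (log2 fold change -2.99, limma adjusted p = 0.00019), and Esrra, estrogen-related receptor alpha, fell by 2.33 (0.000233). Prkaa1 and Prkaa2, the catalytic subunits of AMPK, rose at L2C by 1.81 (0.0116) and 1.45 (0.00913). Prkaa1 and Tfe3, a lysosomal and metabolic transcription factor, rose at E2C by 2.16 (0.0125) and 1.42 (0.0107). Prkaa1 was at 21.65, 14.08 and 2.72 FPKM in siEchs1 E2C and 1.46, 1.38 and 1.43 in siCon E2C, so replicate 3 lay nearest the controls. Nrf1 had log2 fold changes of 1.28 at E2C (limma adjusted p = 0.0404) and 0.59 at L2C (0.238); it was named after its values were seen.

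In control embryos most called genes of these lists rose between the stages. Of all genes, 35.8% were called higher and 14.4% lower. The share of higher calls among all calls was 71.3%, and 49.7% under quantile normalization. The higher and lower calls were 9 and 2 of 18 tested for replication and upkeep and 8 and 3 of 18 for RNA processing. They were 10 and 2 of 22 for tRNA and rRNA modification and 10 and 0 of 18 for the regulators. Gtpbp3, the partner of MTO1, was at 0.38 to 1.09 FPKM at E2C and 20.86 to 34.35 at L2C (log2 fold change 4.03, limma adjusted p = 8.15e-06), and Esrra at 0.04 to 0.12 FPKM and then 3.65 to 10.97 (2.84, 3.81e-05). Mtpap fell by 1.89 (0.00138), Dguok, the mitochondrial deoxyguanosine kinase, by 1.60 (0.00893) and Rrm2b, a ribonucleotide reductase subunit, by 1.33 (0.0274).

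In the treatment experiment, which asked about added crotonate and acetate, none of the 9 tested genes was called in any of the 3 comparisons in limma. The unadjusted p was under 0.05 for 3 of 9 in crotonate against DMSO, 3 in acetate against DMSO and 2 in crotonate against acetate. The same held for 16.3%, 5.96% and 19.5% of all 13789 genes tested, and 0.529%, 0.0653% and 1.86% were called in these comparisons. The first 2 comparisons share the DMSO libraries.

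Tfb1m came nearest. The DMSO libraries were at 26.48 and 36.44 FPKM, those with acetate at 25.14 and 24.70, and those with crotonate at 10.50 and 6.10. Both crotonate libraries were below all 4 others. The log2 fold change was -1.83 against DMSO (SE 0.36, 95% interval -2.66 to -0.99, limma adjusted p = 0.0714) and -1.52 against acetate (SE 0.36, adjusted p = 0.0757). Tfb2m was at 54.14 and 71.36 FPKM in DMSO, 50.97 and 55.83 in acetate and 61.71 and 56.96 in crotonate, and its log2 fold change of -0.07 in crotonate had a 95% interval from -0.72 to 0.59. Within libraries, Tfb1m over Tfb2m was 0.489 and 0.511 in DMSO, 0.493 and 0.442 in acetate, and 0.170 and 0.107 in crotonate.

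Lrpprc had 5.89 and 7.98 FPKM with DMSO, 1.71 and 4.46 with acetate and 1.38 and 1.95 with crotonate. Its log2 fold change was -1.57 in crotonate (SE 0.43, limma adjusted p = 0.134) and -1.03 in acetate (SE 0.43, adjusted p = 0.784), so both salts lay below DMSO. Fitted with the DMSO and crotonate libraries alone, Tfb1m (adjusted p = 0.0304) and Lrpprc (0.0346) were called lower by limma. They were also called when either acetate library was left out, with adjusted p-values of 0.0292 and 0.0326 for Tfb1m and 0.0347 and 0.0379 for Lrpprc. Calls over all genes were more frequent in these 3 fits too: 6.82% of genes were called lower with the DMSO and crotonate libraries alone, 6.61% without acetate replicate 1, and 804 of 13390 without acetate replicate 2. Tfam had 7.41 and 9.66 FPKM with DMSO, 2.42 and 3.64 with acetate and 5.22 and 4.11 with crotonate. Its log2 fold change was -1.25 in acetate (SE 0.36, limma adjusted p = 0.784) and -0.75 in crotonate (adjusted p = 0.358).

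Slirp was the one gene of the 9 above both DMSO libraries in every library of both salts. Its values were 1.43 and 0.85 FPKM with DMSO, 2.71 and 3.35 with acetate and 3.53 and 3.27 with crotonate, with a log2 fold change of 1.05 in crotonate (SE 0.34, limma adjusted p = 0.187). Snw1 on the other strand was at 64.24 and 68.08 FPKM in DMSO and 26.21 and 25.89 FPKM in crotonate, the opposite order. Polrmt was at 3.95 and 2.81 FPKM in DMSO, 1.21 and 6.14 in acetate and 1.11 and 0.55 in crotonate, and Pnpt1 at 3.72 and 4.69, 3.57 and 5.71, and 2.04 and 2.13. Tefm stayed between 0.80 and 2.10 FPKM and Polg between 0.99 and 2.91 FPKM in the 6 libraries.

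By separation of the groups, 1 of the 9 was higher and 6 were lower in both crotonate libraries than in both DMSO libraries, against 19.2% and 38.4% of all genes. For acetate 1 was higher and 4 were lower, against 16.2% and 18.6% of all genes. The oocyte marker sum was 4930 to 5160 FPKM in DMSO, 4890 to 5450 in acetate and 3790 to 4490 in crotonate, and the mitochondrial share was 12.2 to 13.4%, 11.9 to 20.7% and 16.7 to 19.8%. The 6 blood markers summed to 3.81 to 4.83 FPKM in DMSO, 2.67 to 4.72 in acetate and 9.36 to 13.8 in crotonate, with Hbb-bt at 0 in all 6 libraries. The 5 oviduct markers summed to 1.71 to 3.56, 2.81 to 3.73 and 5.51 to 7.26 FPKM in the same order, and the 7 genes of the 2-cell stage to 107 to 212, 170 to 230 and 246 to 251. The sums of all 3 lists were thus higher in both crotonate libraries than in the other 4. Of the blood markers, 1 reached 1 FPKM in any DMSO library, 1 in acetate and 3 in crotonate. Of the oviduct markers, 1 did so in each of these groups. The part of these markers and of the mitochondrial share in the differences was not tested. Of the wider lists, Mterf4 was the one gene called in crotonate against DMSO. It had 32.96 and 46.84 FPKM with DMSO, 29.31 and 36.81 with acetate and 7.65 and 4.56 with crotonate, a log2 fold change of -2.54 against DMSO (SE 0.36, limma adjusted p = 0.0375) and -2.29 against acetate (SE 0.36, adjusted p = 0.0377). The 15 mitochondrial RNAs had a median log2 fold change of 0.47 in crotonate and 0.46 in acetate, with 0 of 15 called in either by limma; mt-Nd6, at 0.84 in crotonate, had an adjusted p of 0.189. The acetate value rested on replicate 1, since the median was -0.05 without that library and 0.88 without replicate 2. mt-Atp6 was at 27662.64 and 25355.57 FPKM in DMSO, 59291.67 and 25600.51 in acetate and 36205.29 and 33678.59 in crotonate. When acetate replicate 2 was left out, 3 of the 15 were called higher in acetate, and when acetate replicate 1 was left out, 2 were called higher in crotonate.

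Likeness of pattern was taken as Pearson's r of log2(FPKM + 1) over the 12 siRNA libraries, among 8718 genes with a mean of at least 5 FPKM. The genes most like Tfam were Rnf139 (r = 0.979) and Vti1a (r = 0.965). Those most like Polrmt were Tfpt (r = 0.962) and Dhx40 (r = 0.959), and those most like Lrpprc were Rdx (r = 0.986) and Emc6 (r = 0.980). The points share groups and libraries, the best of many genes was taken each time, and no p is attached.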

How the data were processed

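The authors deposited 1 table of FPKM values per library, of 55335 genes each. Per the submitters' processing notes, cutadapt 1.16, STAR and the mm10 build were used; for the FPKM program and its annotation, the sources used here give no name. Libraries were sequenced as paired reads of 150 bases, per the labels' protocols. Sums of FPKM ran from 705511 to 1122231, and no counting intervals are given: at the best-fitting depth only 36.5 to 46.1% of low values of short genes lay within 0.15 of a whole number of fragments, too few to recover counts, with gene lengths from an annotation that may not be the authors'.

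Genes were joined by symbol, and 55098 were kept after removal of symbols given more than once or turned into dates. Each experiment was fitted in 1 limma model (version 3.58.1, R 4.3.3) of group means on log2(FPKM + 1), with a variance trend and robust moderation. Fold changes are on that scale and understate the change of low genes. Genes needed 1 FPKM in at least 3 siRNA or 2 treatment libraries. P-values were adjusted by Benjamini-Hochberg over all genes tested, and genes were called at 0.05 in 8 comparisons. The fit was also run on simulated data with independent normal noise for each gene and library. Those data hold no outlying library such as siEchs1 E2C replicate 3, so they do not bear on calls that move with single libraries. For siEchs1 L2C the replicate numbers in titles and in column headers disagree for replicates 2 and 3, and titles were used. The labels do not say that replicate numbers pair libraries, and the main model has no block.

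The members, gene lists and tests were chosen with earlier results of these data known. Beside the members, the text names Echs1, 4 mitochondrial RNAs, genes sharing exons with members, and, per list and comparison, up to 2 called genes in each direction with the smallest adjusted p and a mean of at least 5 FPKM in the higher group. Further genes of the lists that are named were chosen after their values were seen. Alternatives were another pseudocount (0.1), no filter, quantile normalization, rescaling outside mitochondrial and ribosomal RNA, no variance trend, compared groups alone, a replicate block and leaving out each library. Promoters were searched in RefSeq sequence.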

Additional observations from a re-analysis of the deposited data

Results flagged for a closer look

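The siRNA effect on 2 genes differed between the stages by a test of the difference itself, the interaction of siRNA and stage in limma. For Tfb1m the excess of siEchs1 over siCon was larger at L2C than at E2C, by 1.81 on the log2 scale (adjusted p = 0.0477). The adjusted p-values ran from 0.0168 to 0.114 over 19 alternatives. At E2C siEchs1 replicates 1 and 2 were at 30.70 and 25.40 FPKM and replicate 3 at 9.46 FPKM. All 3 siEchs1 L2C libraries lay between 22.68 and 42.94 FPKM. The siCon libraries were at 8.28 to 9.81 FPKM at E2C and 2.81 to 3.78 at L2C. Between the stages Tfb1m was thus called lower in siCon (-1.19, limma adjusted p = 0.028). It was not called in siEchs1 (0.62, limma adjusted p = 0.361). Polg had a difference of -1.99 (adjusted p = 0.0373), with adjusted p-values from 0.0296 to 0.1 over 19 alternatives. Its level rose from E2C to L2C in siCon, where it was 2.44 to 4.34 and then 5.44 to 14.69 FPKM, and was already 8.54 to 15.34 FPKM in siEchs1 at E2C.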

How the results depend on the processing

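Over single-gene results of the 9 tested members and their alternatives, 1103 kept direction and side of the threshold, 48 lost a call, 45 gained one and 46 changed sign. None of the 46 was called with either sign. Members called changed as follows. At E2C (2 called) it was 1 without a filter, 3 with quantile normalization and 3 without a variance trend, 5 with rescaling, 1 with the compared groups alone, and 0 to 8 when 1 library was left out. At L2C (4) it was 6 with quantile normalization and 6 with rescaling, and leaving 1 library out gave 3 to 7. For the stage difference (2) it was 0 with a pseudocount of 0.1, 0 without a filter, and 0 to 3 without 1 library. Between stages in siCon (3) it was 5 with the groups alone and 1 to 5 without 1 library. In crotonate against DMSO (0) it was 2 with the groups alone and 0 to 2 without 1 library, and against acetate (0) it was 0 to 1.

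By the replicate numbers of the titles no pairing was seen: same-numbered libraries of different siRNA groups had correlations of deviations from -0.1 to 0.11. By the header numbers, the same-numbered pairs of siCon L2C and siEchs1 L2C had 0.11, 0.09 and 0.22. The other pairs of these groups ran from -0.16 to 0.02. Whether the L2C libraries were paired was not tested. With a replicate block the stage difference had 1 member called, and 1 with the header numbers as block. At E2C 3 were called with either block, as Tfam was gained (adjusted p = 0.0276 and 0.0384 in limma); the count moved by at most 1 in the other comparisons.

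Over all genes, calls at E2C (3578) were 3577 with quantile normalization, 3900 with rescaling, 1807 with the groups alone and 1748 to 6496 without 1 library. At L2C (8611) calls of genes were 8616 with quantile normalization and 8626 with rescaling. Without siEchs1 E2C replicate 3, 27.7% of genes were called higher and 31.0% lower at L2C, against 21.9% and 26.9% in the main fit. Between stages in siCon (8870) calls of genes were 8435 with quantile normalization and 9141 with rescaling. For the stage difference (3039) calls of genes were 1794 with a pseudocount of 0.1, 1869 without a filter and 1296 to 4094 without 1 library. Between stages in siEchs1 (2572) calls of genes were 1704 without a filter, 827 with the groups alone and 1121 to 3473 without 1 library. For crotonate against DMSO (73) calls of genes were 31 with a pseudocount of 0.1, 9 without a filter, 40 with rescaling, 41 without a variance trend, 1209 with the groups alone and 0 to 1194 without 1 library. For acetate against DMSO (9) calls of genes were 0 without a filter, 5 with quantile normalization, 4 with the groups alone and 1 to 911 without 1 library. For crotonate against acetate (257) calls of genes were 162, 9, 167, 151 and 74 with the pseudocount, no filter, rescaling, no trend and the groups alone, and 0 to 1486 without 1 library. Quantile normalization moved the median of all genes by 0.11 at L2C, 0.21 for the stage difference, -0.29 between stages in siEchs1 and 0.14 for crotonate against DMSO, and rescaling by -0.18 for the stage difference, 0.25 between stages in siCon, -0.11 for acetate and 0.11 for crotonate against acetate. Quantile normalization took the share of higher calls for the stage difference from 32.8% to 50.7%, for the stages in siEchs1 from 81.3% to 57.8%, for crotonate against DMSO from 39.7% to 50% and for crotonate against acetate from 54.9% to 64.9%; rescaling took the last 2 to 52.5% and 71.3%.

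Log2 fold changes that changed sign with another scaling or pseudocount were small. Under quantile normalization they were -0.28 for Tefm and -0.04 for Slirp at E2C, 0.05 for Pnpt1 in the stage difference, -0.36 for Tfam and -0.35 for Pnpt1 between stages in siCon, -0.30 for Pnpt1 between stages in siEchs1 and 0.18 for Tfb2m in crotonate. A pseudocount of 0.1 gave -0.02 for Tefm at E2C and 0 for Lrpprc between stages in siEchs1. Rescaling gave 0.05 and 0.08 for Lrpprc between stages in siCon and siEchs1, and -0.08 for Tefm and -0.01 for Pnpt1 in acetate.

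Ranges that crossed 0 when 1 library was left out were, at E2C, -0.65 to 0.83 for Tefm and -0.72 to 1.93 for Slirp, and at L2C -0.23 to 0.97 for Polrmt. For the stage difference they were -0.71 to 1.18 for Tfam, -0.11 to 0.40 for Lrpprc and -0.51 to 0.05 for Pnpt1, and in siCon -0.21 to 0.86 for Tfam. Between stages in siEchs1 they were -0.40 to 1.49 for Tfam, -0.61 to 0.22 for Tfb2m, -1.04 to 0.43 for Tefm, -0.30 to 0.21 for Lrpprc, -0.71 to 1.94 for Slirp and -0.17 to 0.27 for Pnpt1. In crotonate against DMSO they were -0.26 to 0.13 for Tfb2m and -0.66 to 0.27 for Polg, against acetate -0.11 to 0.81 for Polg, and in acetate -0.97 to 0.72 for Polrmt, -0.22 to 0.24 for Tefm and -0.18 to 0.37 for Pnpt1. Where an arm is left with 1 library, it is assumed to vary like the other groups. The cause of these changes was not tested.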
